A study of Mus musculus with 8 samples.

Results

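Fatty acid binding proteins, their membrane and droplet partners and the peroxisome proliferator-activated receptors (PPARs) were followed across the progression of mouse skin squamous cell carcinoma (SCC). The set is 10 genes chosen by name: the carriers Fabp3, Fabp4, Fabp5 and Fabp7, the uptake genes Cd36 and Lpl, the lipid droplet gene Plin2, and the receptors Pparg, Ppard and Ppara. All 10 of the 10 were found among 17097 genes with a probe set of their own, each read at its probe set of highest mean. The 8 arrays held RNA of tumour cells sorted for α6-integrin and CD34, called cancer stem cells in the labels, 4 from well differentiated tumours (WD-SCC) and 4 from poorly differentiated ones (PD-SCC, written PD/S-SCC in the titles). The donors were K14-HPV16 mice, which express human papillomavirus genes from a promoter of basal keratinocytes, on a strain labelled FVB/C57/Bl6, and every group carries that transgene. Their tumours arose spontaneously or after the carcinogen DMBA with the promoter TPA (which of these applies to each lineage was not given in the sources used here), were grafted orthotopically onto nude mice, which lack T cells but keep other host cells, and were passed on serially. Lineage OT7 gave 2 arrays per stage, of which 1 WD-SCC array has no number, and OT14 and OT15 gave 1 array per stage each, with no animal ages stated. Labels call the arrays biological replicates without naming separate tumours, so p-values here reflect only how these samples scatter, and that scatter may be technical.

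Fatty acids enter a cell partly through CD36, after lipoprotein lipase (LPL) has released them from circulating triglyceride, and are carried in the cytosol by small fatty acid binding proteins. Some of these carriers bring ligands to the PPARs, nuclear receptors that pair with retinoid X receptors (RXRs) and switch on genes of fatty acid storage and breakdown. In skin, FABP5 is the epidermal carrier and PPARδ is the receptor most widely made by keratinocytes, whereas FABP4 is best known from adipocytes, macrophages and capillary endothelium. Perilipin 2, made from Plin2, coats lipid droplets in most cell types.

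Values are log2 units throughout. They are compared within a gene or, for summed levels, within a list, since probe sets differ in brightness. A summed level leans on the brightest probe sets of its list. On each array, 15 bacterial control probe sets without a spike serve as the background level, and the highest of them on an array lay between 3.82 and 4.37 in WD-SCC and between 3.61 and 3.81 in PD-SCC, a difference of means of -0.42. A further control, the array's nonspecific probe set of high GC content, was brighter and also separated the stages without overlap, at 8.39 ± 0.26 in WD-SCC and 6.94 ± 0.19 in PD-SCC (SD, n = 4 arrays, difference -1.44), and its part in the differences below was not tested. Plin2, Ppard and Fabp3, 3 of the 10 genes, were above the highest bacterial control on all 8 arrays, as were 38.4% of all genes. Fabp7, Cd36 and Ppara, another 3, were at or under it on every array, against 28.7% of all genes. Of 10 keratinocyte markers that check the labels, 7 fell from WD-SCC to PD-SCC, against 4.81% of all genes. Among them were Krt5 (11.26 ± 0.49 to 4.16 ± 0.17, SD, n = 4 arrays per stage) and Cdh1 (5.80 ± 0.38 to 2.97 ± 0.17, under the controls on every PD-SCC array). The sort marker Cd34 was at 3.58 on the OT15 WD-SCC array, under that array's control of 4.37, and between 6.72 and 8.72 on the others, and Itga6, which encodes the α6-integrin, was at 5.32 there and between 6.14 and 8.15 elsewhere. Of 10 fibroblast markers none passed between stages (limma, 1 at an unadjusted p under 0.05, against 31.9% of all genes). The summed level of the list (here and for other lists the log2 of the sum of linear values) lay between 8.54 and 12.93 in WD-SCC and between 9.89 and 11.70 in PD-SCC.

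**Figure D1:**
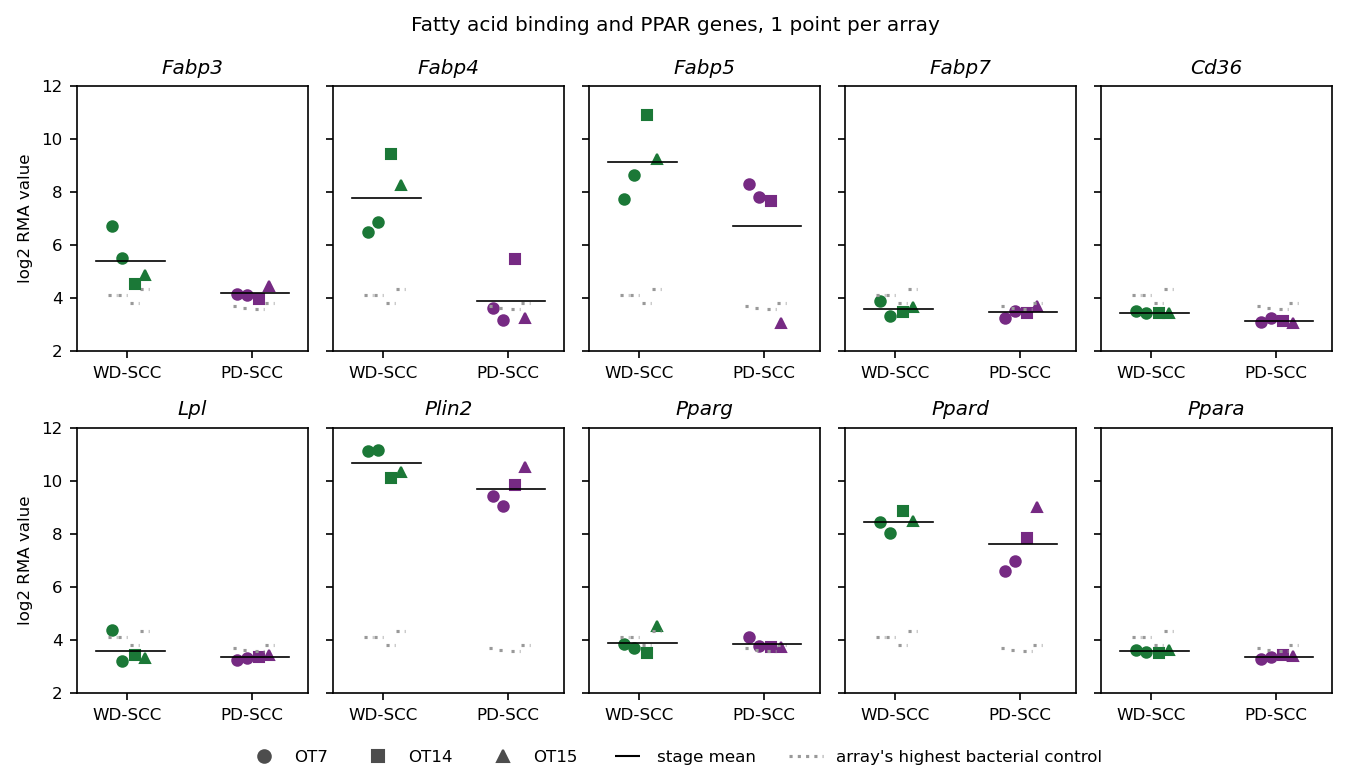
Log2 values of the 10 genes on each array, with WD-SCC in green, PD-SCC in purple, lineages by marker shape, black lines for stage means and grey dots for each array's highest bacterial control. Fabp4 is lower on every PD-SCC array than on any WD-SCC array, Fabp5 drops to 3.06 on the OT15 PD-SCC array, and Fabp7, Cd36 and Ppara stay at or under the controls.

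The carriers held the clearest difference. Fabp4 was the only one of the 10 genes that passed the threshold between stages, and it fell (adjusted p = 0.00416, limma with lineage as a block). Over all genes 12.6% passed, 4.81% lower and 7.78% higher in PD-SCC, so that 1 of 10 is close to the background. All 10 genes had a negative difference, as did 57.8% of all genes, with a median of -0.58 against -0.06, but 5 of the 10 lie at or near the controls. Of these, Pparg was positive after cyclic loess (0.06) and without OT15 (0.18), and Fabp7 and Lpl were positive without the unnumbered OT7 WD-SCC array (0.013 and 0.045). Of the 10 genes, 5 were lower in each of the 3 lineages, as were 29.0% of all genes. In bulk RNA of sorted cells, fewer cells that make a transcript and less transcript per cell cannot be told apart.

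Fabp4, the adipocyte and macrophage carrier, read 6.51 and 6.87 on the OT7 WD-SCC arrays (the unnumbered one first), 9.45 on OT14 and 8.28 on OT15. In PD-SCC it read 3.65 and 3.19 in OT7, 5.47 in OT14 and 3.24 in OT15. Both stages thus stood apart without overlap, and 3 of the 4 PD-SCC arrays were at or under their bacterial controls, with OT14 the exception. The fall was 3.89 on the log2 scale (SE 0.33), which is 14.8-fold on the measured values and 12.3-fold with the dim PD-SCC values raised to their controls. It was found within each lineage: at least 8.09-fold in OT7 (adjusted p = 0.0178), -3.98 in OT14 (adjusted p = 0.0491) and at least 22.1-fold in OT15 (adjusted p = 0.0360). These lineage values take their spread from the OT7 arrays alone, and over all genes 9.07% passed within OT7, 0.842% within OT14 and 1.33% within OT15. Another Fabp4 probe set gave -3.21 (SE 0.55, adjusted p = 0.0236 over 28898 probe sets), and the remaining one was at or under the controls on every array. In that fit over probe sets, the Fabp4 probe set read above passed within OT7 and OT15 but not within OT14. The other bright probe set passed within each lineage. OT14 and OT15 have 1 array per stage. Without lineage OT7, and so on 4 arrays, the adjusted p was 0.0502 at a difference of -4.51, and without OT15, whose WD-SCC array stood apart in the sort markers, the difference was -3.51 (adjusted p = 0.0078).

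Markers of cell types known for FABP4 moved beside it to different degrees, and their part in the fall was not tested. Of 10 endothelial markers 3 fell, against 4.81% of all genes, although the suspensions had been depleted of endothelial cells. All 10 had negative differences, as did 57.8% of all genes. So did 9 of 10 markers of macrophages and other blood cells, 6 of 6 adipocyte markers and 8 of 8 muscle markers. In these lists 4, 3 and 4 genes were at or under the controls on all arrays, and the controls themselves differed by -0.42. Negative differences were also found in 10 of 10 keratinocyte, 7 of 8 Schwann cell and melanocyte, 5 of 7 sebocyte and 4 of 10 fibroblast markers. Tie1, an endothelial receptor, read 5.40 and 7.55 in OT7, 7.98 in OT14 and 8.30 in OT15 among WD-SCC arrays and was under the controls on all PD-SCC arrays, at least 12.2-fold lower (adjusted p = 0.0153). Pecam1, another endothelial gene, was picked after its values were seen and lay between 4.34 and 7.54 on the WD-SCC arrays. Its difference of -2.66 did not pass (limma, adjusted p = 0.0531). The defining markers Tek and Vwf were under the controls on every array. The summed endothelial list lay between 7.84 and 10.83 in WD-SCC and between 7.22 and 8.91 in PD-SCC.

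Of 10 markers of macrophages and other blood cells, only Cd68 fell (7.76 ± 0.19 to 4.97 ± 0.89, adjusted p = 0.0141), while Ptprc, Adgre1, Itgam and Mrc1 were under the controls on all 8 arrays. The summed level of that list lay between 8.49 and 9.34 in WD-SCC and between 7.06 and 7.71 in PD-SCC. Of 6 measured adipocyte markers, the hormone genes Adipoq and Lep and the enzyme gene Pck1 were under the controls on every array. Lipe, which encodes hormone-sensitive lipase and is listed there, was the member of that list that fell, from 7.77 ± 0.66 to 5.33 ± 0.58 (adjusted p = 0.0135, and up to 0.0508 with an array left out), and the summed list lay between 7.68 and 8.72 in WD-SCC and between 6.42 and 6.93 in PD-SCC.

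**Figure D2:**
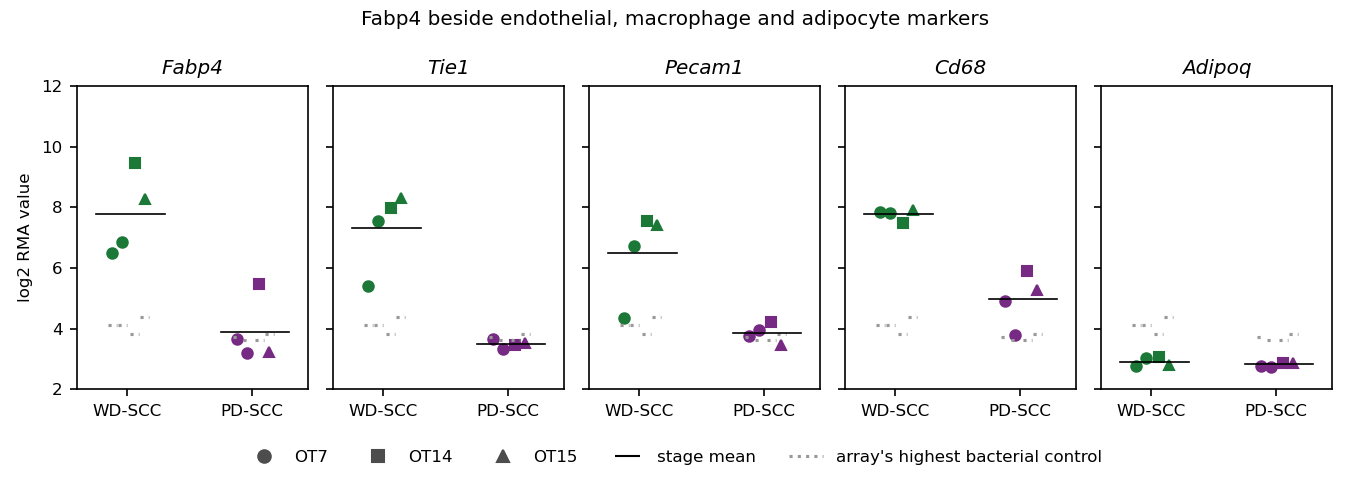
Log2 values of Fabp4 and of the endothelial markers Tie1 and Pecam1, the macrophage marker Cd68 and the adipocyte marker Adipoq on each array, drawn as in the plot of the 10 genes by array. Tie1 and Cd68 are higher on every WD-SCC array than on any PD-SCC array, and Adipoq stays under the controls throughout.

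Fabp5, the epidermal carrier, passed between stages within OT15 alone, and the difference between lineages itself did not pass (interaction, adjusted p = 0.19). It read 7.74 and 8.64 on the OT7 WD-SCC arrays and 8.31 and 7.82 on the OT7 PD-SCC arrays, so that the stages overlapped there. In OT14 it went from 10.90 to 7.66. In OT15 it went from 9.25 to 3.06, under that array's control of 3.81, which is at least 43.3-fold lower (adjusted p = 0.0429 within OT15, 0.124 within OT14 and 0.843 within OT7). Over all lineages the difference was -2.42 (SE 1.07) and did not pass (adjusted p = 0.184). Without OT15 it was -1.16 (adjusted p = 0.361).

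The second Fabp5 probe set separated the stages further. Its differences were -0.96 for OT7, -4.11 for OT14 and -4.84 for OT15, of which OT14 and OT15 passed (adjusted p = 0.0416 and 0.0375 over 28898 probe sets, against 0.0512 in OT7), and its WD-SCC and PD-SCC values did not overlap. Over all lineages its difference was -2.72 (SE 0.75, adjusted p = 0.0745). The signal of this gene is open to cross-hybridisation, since close copies of Fabp5 lie elsewhere in the mouse genome. The part of cross-hybridisation in these values was not tested.

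Fabp3, the carrier of heart and muscle, was lower on each PD-SCC array than on any WD-SCC array, without passing the test. It read 6.74 and 5.50 in OT7, 4.54 in OT14 and 4.86 in OT15 among WD-SCC arrays, and 4.18, 4.13, 3.98 and 4.45 in the same order in PD-SCC. The difference was -1.23 (SE 0.41, adjusted p = 0.106), most of it in OT7 (-1.96 against -0.56 in OT14 and -0.41 in OT15). Of the 10 genes, 4 (Fabp3, Fabp4, Cd36 and Ppara) showed such lower values without overlap, as did 13.3% of all genes, and of these Cd36 and Ppara were under the controls on every array. Muscle markers are given beside Fabp3, and their part in its difference was not tested. Of 8, Des, Myog, Myh4 and Acta1 were under the controls on all arrays and Ckm fell (4.88 ± 0.17 to 4.31 ± 0.16, adjusted p = 0.0309), with the summed list between 7.09 and 7.76 in WD-SCC and between 6.76 and 6.86 in PD-SCC.

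Fabp7, the carrier of brain and glia, lay between 3.25 and 3.89 on the 8 arrays and at or under the controls on each. Its stage difference was -0.12 (SE 0.16, adjusted p = 0.627). Of 8 markers of Schwann cells and melanocytes, Erbb3, which keratinocytes also make, was the only one that fell (7.47 ± 2.01 to 4.03 ± 0.12, adjusted p = 0.0363). Of 5 other fatty acid binding protein genes measured, none passed (limma, 0 at an unadjusted p under 0.05, against 31.9% of all genes). Of these 5, 4 were under the controls on all arrays, and the median difference was -0.10 (0.00081 after cyclic loess).

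Neither uptake gene was measured at a usable level. Cd36, the fatty acid translocase, lay between 3.44 and 3.52 in WD-SCC and between 3.06 and 3.26 in PD-SCC. The stages did not overlap, but each of the 8 values and those of 2 further probe sets were under the bacterial controls, which were themselves lower in PD-SCC by 0.42. The difference of -0.32 (SE 0.09) did not pass with lineage as a block (adjusted p = 0.0676) and did without it (adjusted p = 0.0389), so that 2 of the 10 genes were then lower. Lpl was above its control on 1 array only, the unnumbered OT7 WD-SCC array, at 4.38, and lay between 3.21 and 3.45 on the other 7 (difference -0.24, adjusted p = 0.58).

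Plin2, the droplet coat gene, was bright on every array and differed in lineage OT7. It read 11.14 and 11.17 on the OT7 WD-SCC arrays and 9.45 and 9.05 on the OT7 PD-SCC arrays, a fall of 1.90 (SE 0.19, adjusted p = 0.0259 within OT7). In OT14 it read 10.10 and then 9.86, and in OT15 10.34 and then 10.53. The difference over all lineages was -0.97 (SE 0.41, adjusted p = 0.173), and without OT7 it was -0.03. In OT7, 3 of the 10 genes were lower past the threshold (Fabp4, Plin2 and Ppard), against 2.87% of all genes lower and 6.21% higher. In OT15 they were 2, Fabp4 and Fabp5, against 0.766% of all genes lower.

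Plin2 is a common target of PPARs, which bind, as a pair with an RXR, direct repeats of the hexamer AGGTCA with 1 base between them. RefSeq promoter windows (GRCm38.p6), which span each start site, were matched for 7 of the 10 genes. Fabp4, Fabp5 and Lpl had no window, so the only gene that passed between stages was not searched. Only exact copies of the hexamer were counted. The full repeat, read on both strands with any base between the hexamers, was in none of their 9 windows and in 0.0396% of 32851 windows. The single hexamer was in 5 of the 9 windows, those of Cd36, Fabp7, Plin2 and Pparg, and in 16.3% of all windows. The stretch of the Plin2 window that holds it is shown because Plin2 is the only one of these 4 genes above the controls on all arrays. It lies upstream of the start site on the minus strand, at chr4:86670225-86670309, with the hexamer, read there in reverse as TGACCT, in capitals.
Plin2: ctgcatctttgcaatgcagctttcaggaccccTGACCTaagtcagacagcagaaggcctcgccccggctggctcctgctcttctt
The match is a description of the letters and shows no binding.

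Of the receptors, Ppard alone was clearly measured. It read 8.44 and 8.03 on the OT7 WD-SCC arrays, 8.88 on OT14 and 8.48 on OT15, and in PD-SCC 6.62 and 6.99 in OT7, 7.86 in OT14 and 9.03 in OT15. It was thus lower in PD-SCC in OT7 and OT14 and higher in OT15, where the PD-SCC array had the highest value of all 8. The differences were -1.43 in OT7 (adjusted p = 0.0486), -1.02 in OT14 (adjusted p = 0.307) and 0.55 in OT15 (adjusted p = 0.506). Over all lineages the value was -0.83 (SE 0.37, adjusted p = 0.182), and without OT15 it was -1.29 and passed (adjusted p = 0.0316). Another Ppard probe set gave -1.92, -1.23 and 0.04 in OT7, OT14 and OT15 (adjusted p = 0.0448 in OT7).

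Pparg, the receptor of adipocytes and sebaceous gland cells, stood near the controls. It read 3.88 and 3.70 in OT7, 3.54 in OT14 and 4.52 in OT15 among WD-SCC arrays, and 4.14, 3.77, 3.74 and 3.74 in the same order in PD-SCC. It was above the control on 1 WD-SCC and 3 PD-SCC arrays, and its difference was -0.06 (SE 0.21, adjusted p = 0.854). Ppara, the receptor of fatty acid burning tissues, lay between 3.30 and 3.62 and under the controls on every array (difference -0.20, SE 0.09, adjusted p = 0.186). Of 7 measured sebocyte markers, Scd1, described with the synthesis genes, was the only one past the threshold and it rose. Of these 7 markers, 5 had negative differences, and the median was -0.27. The summed sebocyte list, which includes Scd1, lay between 6.71 and 7.10 in WD-SCC and between 7.03 and 7.75 in PD-SCC.

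Whether the lineages differed in their stage effect was tested by the interaction. None of the 10 genes passed (limma F test, adjusted p = 0.19 for Fabp5, 0.234 for Plin2, 0.321 for Ppard and 0.381 for Fabp4), and 0% of all genes did. At an unadjusted p under 0.05 it was 4 of the 10 genes, those just named, and 11.9% of all genes. The test of a lineage difference beside stage also called none of the 10 genes and 0% of all genes, with 1 gene, Fabp4, and 7.32% of all genes at an unadjusted p under 0.05. Fabp4 was higher in OT14 than in the other lineages at each stage (9.45 and 5.47, adjusted p = 0.425).

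**Figure D3:**
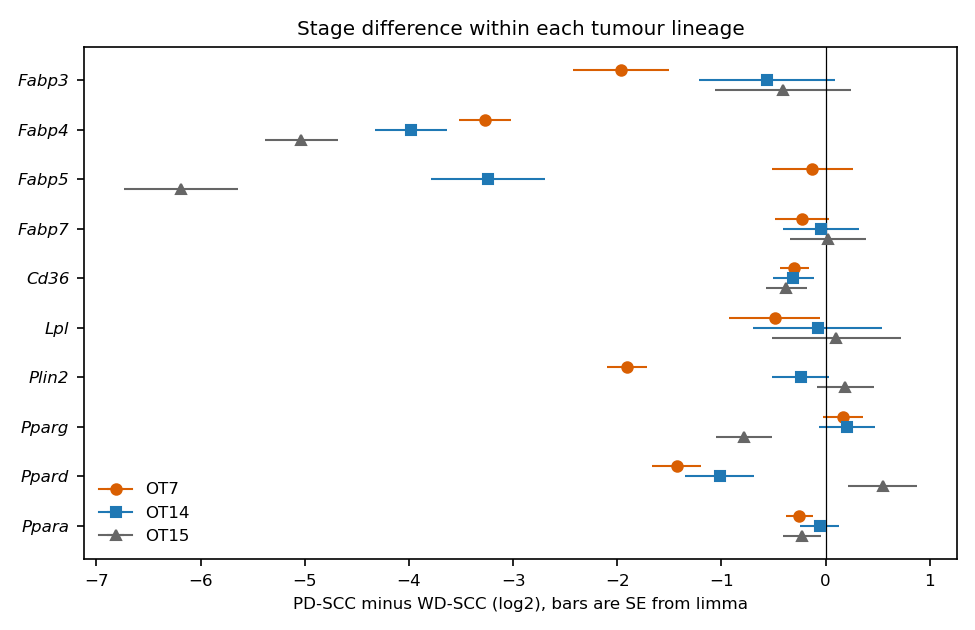
PD-SCC minus WD-SCC within each lineage for the 10 genes on the log2 scale, with bars for the SE of the limma fit, whose spread comes from the OT7 arrays. Fabp4 is negative in each lineage, Fabp5 runs from -0.13 in OT7 to -6.19 in OT15, and Plin2 and Ppard are lowest in OT7.

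The genes around the receptors and carriers were read from 8 lists, of which 112 distinct genes were measured. Of these 21 passed between stages (10 higher and 11 lower in PD-SCC), which is 18.8% against 12.6% of all genes. The lists and the genes on them were chosen with earlier results of these data known, and no list was tested as a set. Of the 21 calls, 8 were kept whichever array was left out: Dgat2, Hilpda, Abhd5, Lsr, Scd1, Elovl5, Fasn and Acsl4. With the OT7 arrays of a stage averaged, Abhd5 (adjusted p = 0.0601), Elovl5 (0.0622), Fasn (0.0645) and Acsl4 (0.0665) did not pass.

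Of 18 measured genes of the lipid droplet and of triglyceride storage and release, 5 fell and none rose, against 4.81% and 7.78% of all genes. Of the 18, 16 had negative differences, as did 57.8% of all genes, and the median was -0.41 against -0.06 over all genes. Without either OT15 array 4 were lower and 1, the phosphatidate phosphatase gene Lpin1, was higher (1.28, adjusted p = 0.0251, against 0.93 and 0.0866 on all arrays). The count was 3 without either OT14 array, with the OT7 arrays averaged, without OT7 and with a common floor. Dgat2, which makes triglyceride in its last step, read 9.09 and 10.56 in OT7, 10.45 in OT14 and 10.54 in OT15 among WD-SCC arrays and between 4.25 and 4.41 on the 4 PD-SCC arrays. It fell by 5.84 (SE 0.34, adjusted p = 0.0015), and the stages were far apart in every lineage. Hilpda, a droplet protein gene induced by low oxygen and by PPARs, fell by 2.62 (SE 0.16, adjusted p = 0.00171). Abhd5, the activator of adipose triglyceride lipase, fell by 2.30 (SE 0.27, adjusted p = 0.00785), and Lipe is given with the adipocyte markers. Cidea, a droplet fusion gene, was under the controls on all PD-SCC arrays and at least 3.95-fold lower (adjusted p = 0.0182), and its adjusted p rose to 0.0597 with an array left out.

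The 7 keratinocyte markers fell beside these genes, and their part was not tested. The summed keratinocyte list lay between 12.71 and 13.49 in WD-SCC and between 7.61 and 9.59 in PD-SCC, with Krt1 under the controls on every array. They also fell beside Slc27a4, the fatty acid transporter of the epidermis, whose values follow with the uptake genes.

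Of 14 fatty acid synthesis and desaturation genes, 4 rose and 1 fell, against 7.78% and 4.81% of all genes. The median was 0.21 (0.01 after scaling to a common 75th percentile, where that of all genes was -0.26, and 0.88 with dim genes left out). The 5 calls came to 1 with the OT7 arrays averaged, 3 with a common floor, 3 when array 2 of OT7 PD-SCC was left out, and 0 without OT7. Elovl5, an elongase of polyunsaturated fatty acids, rose from 7.24 ± 0.61 to 9.13 ± 0.27 (adjusted p = 0.00672), Scd1, the desaturase that makes oleate, from 4.63 ± 0.57 to 6.38 ± 0.46 (adjusted p = 0.00591), and Fasn, the fatty acid synthase, from 5.40 ± 0.51 to 6.74 ± 0.19 (adjusted p = 0.00969). Acaca, which encodes the acetyl-CoA carboxylase that supplies the synthase, was the fourth rise (1.10, adjusted p = 0.0318, and up to 0.0925 with an array left out). Elovl1, the elongase of very long chain fatty acids, was the gene that fell (-1.44, adjusted p = 0.0165, and up to 0.0598 with an array left out).

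Of 14 uptake and activation genes, 4 were higher and 3 lower, against 7.78% and 4.81% of all genes. The median was 0.27 (0.07 after scaling to a common 75th percentile and 0.52 with dim genes left out). These 7 calls came to 0 with the OT7 arrays averaged or a common floor, 1 without OT7, 4 after cyclic loess and 1 to 4 with any 1 array left out. The acyl-CoA synthetase gene Acsl4, which prefers arachidonate, rose by 2.62 (SE 0.38, adjusted p = 0.0134) and the lipoprotein receptor gene Scarb1 rose by 1.14 (SE 0.17, adjusted p = 0.015), a call lost when lineage was left out of the model (adjusted p = 0.105). Acsbg1, another acyl-CoA synthetase gene, fell by 2.07 (adjusted p = 0.0298, and up to 0.0779 with an array left out). Cav1, which encodes the coat protein of caveolae, rose by 2.10 (adjusted p = 0.0415) and Acsl3 fell by 0.91 (adjusted p = 0.0484), with adjusted p of up to 0.119 and 0.127 with an array left out. Slc27a4 fell from 8.01 ± 1.65 to 4.38 ± 0.48 (adjusted p = 0.0377, and up to 0.108 with an array left out), with differences of -2.49 for OT7, -5.27 for OT14 and -4.28 for OT15.

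**Figure D4:**
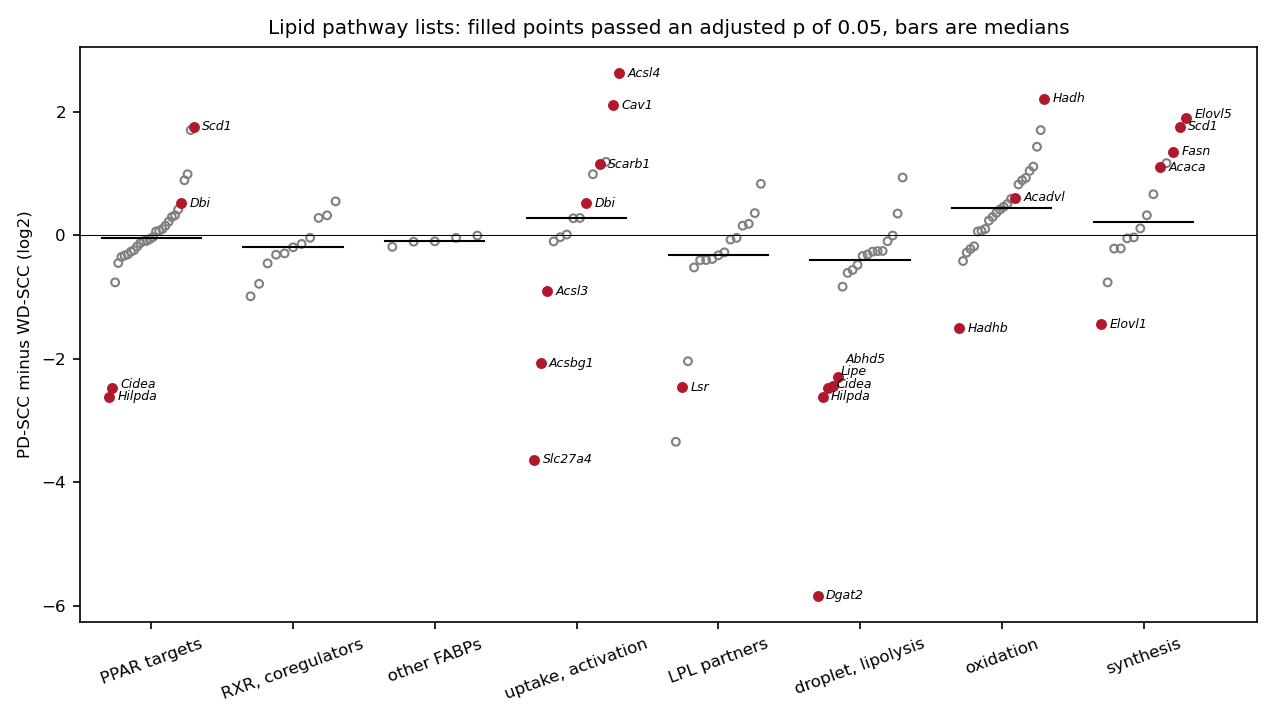
PD-SCC minus WD-SCC (log2) for each measured gene of the 8 lipid lists, 1 point per gene, with filled red points for genes past an adjusted p of 0.05 and bars for list medians. The droplet list has 5 lower and 0 higher filled points, with Dgat2 lowest at -5.84, and the synthesis list has 4 higher and 1 lower.

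Of 24 oxidation genes, 2 rose and 1 fell, with a median of 0.44 (0.08 without OT7, 0.23 after scaling to a common 75th percentile). These 3 calls among 24 genes are close to the 12.6% of all genes that passed. Hadh, of the mitochondrial oxidation spiral, rose by 2.21 (adjusted p = 0.0346) and Acadvl, the dehydrogenase of very long chains, rose by 0.60 (adjusted p = 0.0386), whereas Hadhb, a subunit of the trifunctional protein, fell by 1.51 (adjusted p = 0.04). The count was 0 with the OT7 arrays averaged, without OT7 and with a common floor. Each of these 3 calls was lost when some 1 array was left out, with adjusted p of up to 0.101, 0.117 and 0.113.

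Of 28 measured PPAR target genes, 2 rose and 2 fell, and the median was -0.05, close to that of all genes. Their share is also near the 12.6% of all genes that passed. The 4 calls came to 2 with the OT7 arrays averaged or a common floor, 1 without OT7 and 2 to 4 with 1 array left out. Hilpda and Cidea fell and Scd1 rose, as given above, and Dbi, an acyl-CoA binding protein gene, rose by 0.52 (adjusted p = 0.0482, and up to 0.131 with an array left out). Of 11 RXR and coregulator genes none passed (limma, 4 at an unadjusted p under 0.05, against 31.9% of all genes, median -0.20). The Mediator subunit gene Med1 passed as higher without the lineage block (0.55, adjusted p = 0.0404), with a random block (0.0392) and with the mean of its probe sets (0.00665), and the coactivator gene Ncoa2 as lower after scaling to a common 75th percentile (-1.20, adjusted p = 0.0473). Of 15 partners of LPL and lipoprotein receptors, 1 fell, the receptor gene Lsr (7.74 ± 0.39 to 5.27 ± 0.11, adjusted p = 0.00333), and the median was -0.33. Over all genes 4.81% fell. The count for this list lay between 0 (without OT7) and 3 (common 75th percentile, or a trended and robust prior) over the alternatives. Gpihbp1, the endothelial anchor of LPL, was above its control on 1 of the 8 arrays.

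Genes whose values ran most like those of a carrier, uptake gene or receptor over the 8 arrays are given as a description, since the arrays share the stage difference. For Fabp4 they were Marcksl1, Ugcg and Slc38a4 (Pearson r of 0.98, 0.98 and 0.98), each higher on every WD-SCC array than on any PD-SCC array. Slc38a4, an amino acid transporter gene, read 7.02 and 7.42 in OT7, 8.96 in OT14 and 9.18 in OT15 in WD-SCC and 6.53 in OT14 against 3.11 to 3.47 on the other PD-SCC arrays. For Fabp5 they were Fam110a, Leng8 and Dnajb2 (r of 0.97, 0.95 and 0.95), each lowest on the OT15 PD-SCC array. For Fabp3 they were Prss51, Clec3b and Ptpru (r of 0.99 for each), each highest on the unnumbered OT7 WD-SCC array. For Cd36 and Pparg, which lay at or near the controls, the values of r were 0.97 (Rap1gap, Ifi202b and Vmp1) and 0.91 to 0.92 (Frg2f1, Pard3b and Snx1).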

How the data were processed

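RNA of 8 sorted cell samples was hybridised to Affymetrix arrays. The deposited values are log2 expression per probe set, made by the authors with affy and RMA per the submitters' processing notes, with versions and any further step not given in the sources used here. Scanner files were not used here. Of 45141 probe sets, 104 were controls and 28898 named a single gene (99.3% matched to RefSeq, GRCm38.p6, by Entrez number). For each of 17097 genes the probe set with the highest mean was kept. A gene was called above background on an array where it exceeded the highest of 15 unspiked bacterial controls, and a bound ("at least") sets the bright mean against that level.

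Stages were compared with limma 3.58.1 (R 4.3.3; lmFit and eBayes) with lineage as a block, since PD-SCC was derived from the same lineage by transplantation, and p-values were adjusted by Benjamini-Hochberg over all genes, with 0.05 as the threshold. Deviations of the 2 stages of a lineage correlated at -0.04 in OT7, 0.02 in OT14 and 0.06 in OT15, so the pairing rests on the labelled lineage and not on these correlations. For Fabp4 the SE was 0.33 with the block and 0.76 without it (limma, adjusted p = 0.00416 and 0.0198). The fit per lineage takes its spread from OT7 only. The number of arrays limits the precision. The code was checked on simulated data. Figures were drawn with matplotlib 3.10.9 (Python 3.11.15).

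The 10 genes and all lists were chosen with earlier results of these data known. The rule for naming took the 10 genes and up to 3 genes of each list with the smallest p past the threshold. It also took the 3 genes most like each of Fabp4, Cd36, Fabp3, Fabp5 and Pparg over the arrays. Of the marker genes that passed or lay under the controls, only some were named. Lpin1, Med1, Ncoa2, Dbi, Slc27a4, Cav1, Acsl3, Elovl1, Acaca, Gpihbp1 and Pecam1 fall outside that rule and were chosen after their values were seen. Alternatives were the block, normalization, the probe set rule, the dim-gene filter, the prior and leaving out each array; a common floor and leaving out OT7 were added after seeing the data.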

Additional observations from a re-analysis of the deposited data

Results flagged for a closer look

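Within each stage, the lowest and the highest of the 4 arrays were set against the other arrays for each of the 10 genes. In 2 of 20 such groups 1 array stood further off than Dixon's critical value for the gap over the range, and chance does this in about 1 of 20 groups. Fabp5 was at 3.06 on the OT15 PD-SCC array, far under the other PD-SCC arrays (gap over range 0.877). Pparg was at 4.14 (4.1361) on the OT7 PD-SCC array numbered 1, above the other PD-SCC arrays (0.914).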

How the results depend on the processing

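Of the 10 genes, 1 (Fabp4) passed between stages. The count was 2 with no replicate block, so without the pairing by lineage (Cd36 added, adjusted p = 0.0389), 2 with lineage as a random block (Cd36, 0.0373), 2 after scaling to a common 75th percentile (Cd36, 0.0482) and 2 with a trended and robust prior (Cd36, 0.0268), and Cd36 was under the controls on every array. With 1 array left out in turn it was 1 to 2, the 2 being Fabp4 and Ppard without either OT15 array (adjusted p = 0.0316). It was 0 with OT7 left out, chosen after seeing the data. The other alternatives gave 1, and the cause of these shifts was not tested. The difference of Fabp4 lay between -4.51 and -2.43 over all alternatives and its adjusted p between 0.000558 and 0.0502. No gene of the 10 passed in the interaction or the lineage difference under the alternatives run for them (dim genes left out, mean of probe sets, cyclic loess, common 75th percentile, trended and robust prior), with arrays left out and the common floor not run for these tests, and no stage difference of the 10 changed sign past the threshold. Over all genes, 2154 passed (1331 higher and 823 lower). That count was 401 with the OT7 arrays of a stage averaged, 886 to 1689 with 1 array left out, 246 without OT7 and 505 with values raised to 1 common floor. Cyclic loess gave 864 higher and 864 lower, and the common 75th percentile 1102 higher and 1463 lower. Signal at the bacterial controls limits what can be read for Fabp7, Cd36, Ppara, Lpl and Pparg.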
